A study of Macaca fascicularis with 56 samples.

Results

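The NR4A nuclear receptors are 3 genes, NR4A1, NR4A2 and NR4A3, among the 16020 genes that could be tested in this series. They were taken by name: a probe set, the group of probes that reads 1 gene, belonged to a member if the array annotation gave that member as its only gene symbol. Each member had 3 such probe sets, 9 in all. The one with the highest mean over the 56 arrays was used for each gene, 202340_x_at for NR4A1, 204622_x_at for NR4A2 and 209959_at for NR4A3.

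NR4A1 (also called Nur77), NR4A2 (Nurr1) and NR4A3 (NOR1) are orphan nuclear receptors: transcription factors with the fold of a hormone receptor but no settled natural ligand, whose activity follows chiefly from how much of them is made. Their genes are immediate early genes, switched on within a short time by endotoxin, prostaglandins and cyclic AMP, calcium and antigen receptor signals, and switched off again as the messenger RNA decays. In blood, NR4A1 is known for its part in the survival of patrolling monocytes, NR4A receptors restrain NF-kB signalling in macrophages, and in T cells they take part in tolerance and exhaustion.

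Whole blood RNA of 14 cynomolgus macaques was hybridised to arrays designed for human genes, 1 array per animal at each of 0, 2, 4 and 8 h. The series title describes an endotoxin challenge followed by LR12 or its scrambled version. LR12, taken from the TREM-like transcript 1 protein, occupies the ligands of TREM-1, through which neutrophils and monocytes strengthen their inflammatory response. Vehicle was given to 4 animals (Y31301 to Y31304), the scrambled peptide to another 4, called peptide control (Y31305 to Y31308), and LR12 to 6 (Y31309 to Y31314). Strain, age, doses, the point of the protocol at which 0 h was sampled, and whether vehicle animals also received endotoxin are not given in the sources used here. The replicates are animals.

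Values are log2 of the deposited MAS5 intensities, a level with no fixed zero, so levels were compared between groups for 1 gene and never between genes. The median probe set of an array lay between 3.91 and 4.23 on this scale when averaged by group. Over all genes, the median change from 0 h at 2, 4 and 8 h was -0.18, -0.29 and -0.27 with LR12, -0.04, -0.26 and -0.11 with peptide control, and 0.03, -0.15 and -0.06 with vehicle, and member changes are to be read against these. Readings of the 24 probe sets of added poly-A control RNA split the arrays into 24 with high and 32 with low readings, unevenly over arms and hours. High readings were on 2, 0, 2 and 2 of 4 vehicle arrays at 0, 2, 4 and 8 h, on 3, 1, 4 and 3 of 4 peptide control arrays and on 1, 1, 2 and 3 of 6 LR12 arrays. The change of NR4A3 to 2 h with LR12 was 3.96 with this split as a covariate and 3.81 on low-reading arrays alone, both called. With peptide control the second of these fits could not be made, as only 1 array at 0 h had low readings. The animals Y31303, labelled vehicle, and Y31305, labelled peptide control, stood apart from the rest of their arms at 2 h. The arm's values without them are given beside those with them. They were singled out after their values were seen, so p-values of fits without them are descriptive only.

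NR4A3 was the member with the large early change. At 2 h it was 15.6-fold higher than at 0 h in the LR12 arm and 14.9-fold higher in the peptide control arm, and from 2 to 4 h it fell in both. In the vehicle arm it did not pass the test at any hour.

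In the LR12 arm, the NR4A3 log2 level at 0 h ran from 4.23 through a median of 4.84 to 6.55. At 2 h it ran from 8.38 through 9.23 to 9.57. Each of the 6 animals was higher at 2 h, and the 2 groups of values did not overlap. The log2 change was 3.96 ± 0.49 (SE, n = 6 animals, limma adjusted p = 4.9e-09, where adjustment was by Benjamini-Hochberg over all genes and the threshold was 0.05). In this comparison 12.1% of all genes were called higher and 25.8% lower.

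With peptide control, the NR4A3 level went from 4.07, 3.98, 4.75 and 4.80 at 0 h to 4.73, 8.97, 10.81 and 8.66 at 2 h, in the order Y31305 to Y31308. The animals Y31306 to Y31308 had risen beyond every value of 0 h in any arm, and Y31305 stayed near its starting level. The log2 change was 3.89 ± 0.60 (SE, n = 4, limma adjusted p = 3.5e-05), in a comparison that called 4.37% of genes higher and 3.26% lower. Without Y31305 it was 4.97 (adjusted p = 1.3e-08).

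In the vehicle arm, the NR4A3 level went from 5.72, 7.22, 5.08 and 4.64 at 0 h to 5.58, 4.96, 8.10 and 4.54 at 2 h, in the order Y31301 to Y31304. Only Y31303 was higher, and its 2 h level was close to those of the other arms. The log2 change of the arm was 0.13 ± 0.60 (SE, n = 4, limma adjusted p = 0.985), and -0.83 without Y31303 (adjusted p = 0.813). The vehicle comparison at 2 h called 0.0687% of genes higher and 0.00624% lower.

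**Figure D1:**
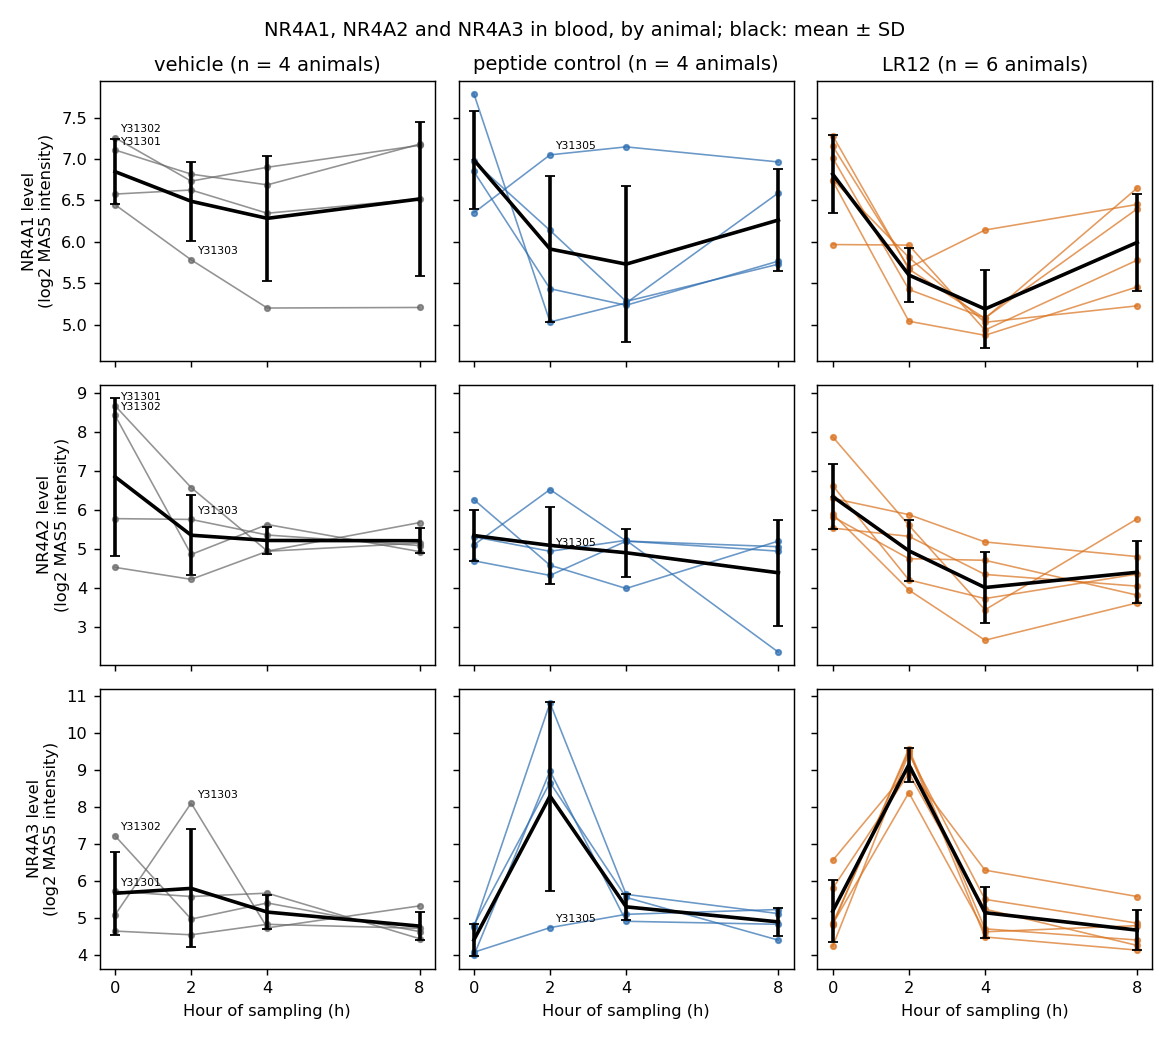
Log2 MAS5 intensity (vertical axis, scaled per gene) of NR4A1, NR4A2 and NR4A3 against the hour of sampling (horizontal axis, h) in the vehicle, peptide control and LR12 arms. Thin lines are single animals and black lines are means ± SD. NR4A3 peaks at 2 h in 6 of 6 LR12 animals, in 3 of 4 peptide control animals and in vehicle animal Y31303.

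NR4A3 came down between 2 and 4 h. Levels at 4 h ran from 4.48 through 4.97 to 6.29 in the LR12 arm and were 5.09, 4.91, 5.63 and 5.55 in the peptide control arm. The fall from 2 to 4 h was 16-fold in the LR12 arm (log2 difference -4.0 ± 0.49, SE, n = 6, limma adjusted p = 2.2e-08) and 7.98-fold in the peptide control arm (-3.0 ± 0.60, n = 4, adjusted p = 0.0011), where it was -4.12 without Y31305 (adjusted p = 2.0e-06). These were the 2 of 9 member comparisons called between 2 and 4 h, where 7.95% of all genes were called higher and 10.2% lower with LR12, 4.18% higher and 8.22% lower with peptide control, and 0.0187% higher and 0.144% lower with vehicle.

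Against 0 h, NR4A3 was at -0.04 ± 0.49 at 4 h and -0.51 ± 0.49 at 8 h in the LR12 arm (limma adjusted p = 0.958 and 0.443). The 4 h levels of the peptide control arm lay above all 4 levels of 0 h, and the log2 change of 0.90 ± 0.60 was not called (adjusted p = 0.315, higher in 4 of 4 animals). At 8 h it was 0.49 ± 0.60 in that arm (adjusted p = 0.712), and without Y31305 these changes were 0.85 and 0.27. In the vehicle arm, the changes to 4 and 8 h were -0.51 and -0.89 (adjusted p = 0.738 and 0.681), and -0.56 and -1.27 without Y31303.

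NR4A1 went the other way. It was lower at all 3 later hours in the LR12 arm and lowest at 4 h. Its fall passed the test at 4 h in the peptide control arm and at no hour in the vehicle arm.

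The NR4A1 level in the LR12 arm ran from 5.97 through a median of 6.88 to 7.28 at 0 h, from 5.04 through 5.68 to 5.96 at 2 h, from 4.87 through 5.05 to 6.14 at 4 h and from 5.23 through 6.09 to 6.65 at 8 h. All 6 animals were lower at 2 h than at 0 h, and the values of these hours met without overlapping. The log2 change was -1.22 ± 0.30 (SE, n = 6, limma adjusted p = 0.00076) at 2 h, -1.63 ± 0.30 (adjusted p = 1.1e-05) at 4 h and -0.82 ± 0.30 (adjusted p = 0.025) at 8 h. These are levels 2.32, 3.09 and 1.77 times lower than at 0 h. With each array centred on its median, which takes out the drift of all genes, the changes were -1.16, -1.36 and -0.55, and the last was no longer called (adjusted p = 0.171). The 8 h call was lost in 8 of 15 alternatives, median centring among them, and also without Y31311 (-0.68) or Y31313 (-0.73). Of all genes in the LR12 arm, 12.8% were called higher and 29.8% lower at 4 h, and 10.9% and 25.5% at 8 h.

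From 4 to 8 h, NR4A1 was higher again in 6 of 6 LR12 animals, by 0.80 ± 0.30 on the log2 scale, which did not pass the test (limma adjusted p = 0.073). It passed when Y31303 or Y31305 was left out, with the same difference. None of the 9 member comparisons between 4 and 8 h was called by limma, with 1 at an unadjusted p under 0.05, against 6.12% of genes called higher and 4.23% lower in the LR12 arm, 0.63% and 0.281% in the peptide control arm and 0% in the vehicle arm.

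Peptide control animals had NR4A1 levels of 6.35, 7.79, 6.97 and 6.85 at 0 h, 7.05, 5.03, 6.14 and 5.44 at 2 h, followed by 7.15, 5.26, 5.28 and 5.24 at 4 h, then 6.96, 6.59, 5.73 and 5.77 at 8 h. Y31305 was higher at each later hour than at 0 h, and the other animals of the arm were lower. The log2 change was -1.07 ± 0.36 (SE, n = 4, limma adjusted p = 0.058) at 2 h, -1.26 ± 0.36 (adjusted p = 0.016) at 4 h, where 10.5% of all genes were called lower and 4.82% higher, and -0.73 ± 0.36 (adjusted p = 0.264) at 8 h, where 1.92% were called lower and 2.38% higher. Without Y31305 these changes were -1.67, -1.94 and -1.17, and all 3 were called (adjusted p = 0.00097, 0.00015 and 0.028). Leaving out Y31306, Y31307 or Y31308 in place of Y31305 ended the 4 h call, with changes of -0.84, -1.11 and -1.14 (adjusted p = 0.219, 0.131 and 0.088). It was also lost or reversed in 5 of 14 other alternatives.

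In the vehicle arm, the NR4A1 level was 7.11, 7.26, 6.45 and 6.58 at 0 h and 6.69, 6.90, 5.20 and 6.35 at 4 h. The drop in Y31303 was the largest of the arm, and the groups overlapped. The log2 changes of -0.36, -0.56 and -0.33 at 2, 4 and 8 h were not called (limma adjusted p = 0.854, 0.491 and 0.860), in comparisons that called 0.212% of genes higher and 0.268% lower at 4 h, and 0.0312% and 0.112% at 8 h. Without Y31303 the changes were -0.25, -0.34 and -0.03.

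NR4A2 fell in the LR12 arm at each later hour, reached its lowest mean at 4 h and did not come back by 8 h. Its level ran from 5.54 through a median of 6.10 to 7.87 at 0 h, from 3.96 through 5.04 to 5.89 at 2 h, from 2.67 through 4.05 to 5.19 at 4 h and from 3.63 through 4.21 to 5.78 at 8 h. All 6 animals were lower at 2 h and at 4 h than at 0 h, and the 4 h values lay below those of 0 h without overlap.

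The NR4A2 log2 change in the LR12 arm was -1.39 ± 0.47 (SE, n = 6, limma adjusted p = 0.016) at 2 h, -2.33 ± 0.47 (adjusted p = 5.6e-05) at 4 h and -1.94 ± 0.47 (adjusted p = 0.00096) at 8 h. As folds, NR4A2 was 2.61, 5.01 and 3.82 times lower. The 2 h call was lost without Y31309, Y31310 or Y31314, where the change was -1.21, -1.18 and -1.27 (adjusted p = 0.055, 0.080 and 0.051).

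NR4A2 at 0 h was uneven among the vehicle animals, at 8.67, 8.42, 5.78 and 4.54. In the same order of animals it read 6.58, 4.87, 5.76 and 4.23 at 2 h. The readings were 4.95, 5.63, 5.36 and 4.95 for 4 h, then 5.68, 4.94, 5.09 and 5.16 for 8 h. Y31301 and Y31302 started high and came down, and the other vehicle animals showed no such drop. The log2 changes of -1.49, -1.63 and -1.64 (each ± 0.58, SE) were not called (limma adjusted p = 0.329, 0.172 and 0.272), although each had an unadjusted p under 0.05. Without Y31303 they were -1.99, -2.03 and -1.95, also not called. The high pair were on arrays with low poly-A control readings at 0 h and the low pair on arrays with high readings. With low-reading arrays alone the changes were -3.08, -3.25 and -3.24, and all 3 were called. In that fit the vehicle arm at 0, 4 and 8 h held only 2 animals, Y31301 and Y31302, the pair that started high. At 2 h it held all 4. T cell markers were also high at 0 h in these animals, with a mean log2 level of 9.21 in Y31301 and 9.46 in Y31302 against 8.05 in Y31303 and 8.28 in Y31304. The part of control readings and of T cell markers in the NR4A2 levels was not tested.

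Another high NR4A2 level at 0 h was that of Y31309 of the LR12 arm, at 7.87. NR4A3 was also raised at 0 h in Y31302 (7.22) and Y31309 (6.55). Without Y31301, Y31302 and Y31309 together, an alternative chosen after these values were seen, NR4A2 still fell with LR12 at each later hour (-1.21, -1.91 and -1.90, limma adjusted p = 0.030, 0.00060 and 0.0010), and its vehicle change at 2 h was -0.16 (adjusted p = 0.966).

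Among peptide control animals, NR4A2 was 5.32, 6.27, 5.11 and 4.71 at 0 h, 4.95, 4.59, 6.53 and 4.33 at 2 h, followed by 5.23, 4.00, 5.21 and 5.21 at 4 h, then 2.37, 5.21, 5.07 and 4.95 at 8 h. The groups overlapped at every hour, and the low value at 8 h was that of Y31305. The log2 changes of -0.25, -0.44 and -0.95 (each ± 0.58, SE, n = 4) were not called (limma adjusted p = 0.875, 0.651 and 0.375). Without Y31305 they were -0.21, -0.56 and -0.29.

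In all, 9 of the 27 changes from 0 h were called by limma: 7 of 9 in the LR12 arm, 2 of 9 in the peptide control arm and 0 of 9 in the vehicle arm, where 3 had an unadjusted p under 0.05. The LR12 arm held 6 animals against 4 in each other arm and also called the largest share of all genes at each hour, as given above. A call in 1 arm and not in another is not itself a difference between arms. For NR4A2, the change from 0 h differed between LR12 and vehicle by 0.11, -0.70 and -0.30 at 2, 4 and 8 h. None of these was called (limma adjusted p = 0.952, 0.632 and 0.871). At 2 h, 10 of the 14 animals combined a higher NR4A3 with a lower NR4A1 than at 0 h, and 11 had lower levels of both NR4A1 and NR4A2.

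**Figure D2:**
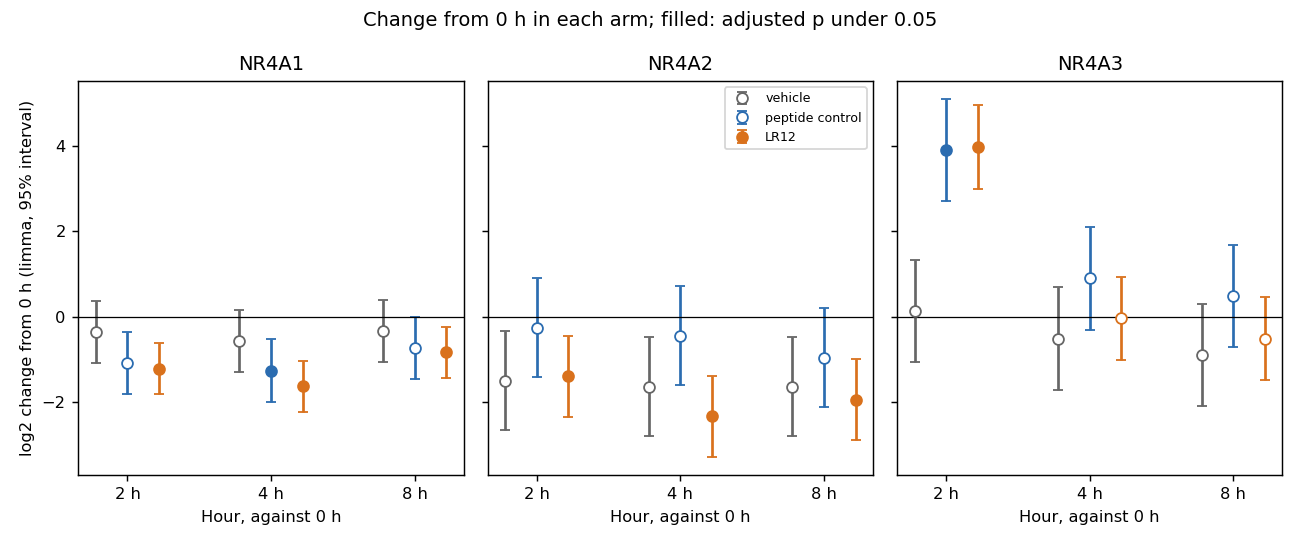
Log2 change from 0 h (vertical axis) at 2, 4 and 8 h (horizontal axis) for NR4A1, NR4A2 and NR4A3 in the vehicle (grey), peptide control (blue) and LR12 (orange) arms. Points are limma estimates, bars are 95% intervals and filled points have an adjusted p under 0.05. NR4A3 stands alone above 0 at 2 h in both peptide arms, while the called changes of NR4A1 and NR4A2 lie below 0.

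Ordered by mean level over the 12 groups of arm and hour, NR4A3 was highest in the LR12 arm at 2 h (9.14 ± 0.46, SD) and the peptide control arm at 2 h (8.29 ± 2.56), and lowest in the peptide control arm at 0 h (4.40 ± 0.44). NR4A1 was highest at 0 h in all 3 arms (6.99 ± 0.60 in the peptide control, 6.85 ± 0.39 in the vehicle and 6.82 ± 0.47 in the LR12 arm) and lowest in the LR12 arm at 4 h (5.19 ± 0.47). NR4A2 was highest in the vehicle arm at 0 h (6.85 ± 2.02) and lowest in the LR12 arm at 4 h (4.02 ± 0.91). For none of the 3 genes did neighbours in the order differ by more than the larger SD of the pair, and their ranges overlapped.

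The comparison of LR12 with its scrambled peptide asks whether the sequence of LR12 altered the response. No NR4A difference between these arms passed the test at any hour: 0 of 12 member comparisons of levels and 0 of 9 of the change from 0 h were called by limma, with 0 and 1 at an unadjusted p under 0.05. Among all genes, 0% were called at 0 h, 0.381% higher and 4.15% lower at 2 h, 0.499% higher and 1.35% lower at 4 h, and 0.0125% higher and 0.0499% lower at 8 h. For the change from 0 h, 0.0874% and 1.09% were called at 2 h, 0.00624% and 0% at 4 h, and 0% at 8 h.

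For NR4A3, the change to 2 h differed between LR12 and peptide control by 0.07 on the log2 scale (95% interval -1.47 to 1.61, limma adjusted p = 0.978). The interval is wide enough to hold a difference of 1 log2 unit in both directions. Without Y31305 the difference was -1.01. For NR4A1 it was -0.14 (-1.08 to 0.80, adjusted p = 0.911), and 0.45 without Y31305. For NR4A2 it was -1.13 (-2.63 to 0.36, adjusted p = 0.443), and -1.17 without Y31305.

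The two-sided exact permutation test over the 10 animals, with 210 regroupings and a smallest possible p of 0.0048, gave p = 0.962 for NR4A3, 0.862 for NR4A1 and 0.129 for NR4A2 (0.962, 0.962 and 0.386 after Benjamini-Hochberg adjustment over these 3). The single difference with a low unadjusted p was NR4A2 in the change to 4 h, at -1.89 (95% interval -3.38 to -0.39, limma adjusted p = 0.299), and -1.77 without Y31305. These NR4A2 levels were about 1 log2 unit apart already at 0 h (6.35 in the LR12 arm and 5.35 in the peptide control arm, adjusted p = 0.997).

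Against vehicle, which shares its animals between the comparisons of both peptide arms, NR4A3 at 2 h was 10.2-fold higher in the LR12 arm (log2 difference 3.34 ± 0.62, SE, limma adjusted p = 0.00015), and by 4.11 on the log2 scale without Y31303. The lowest LR12 value of 8.38 stood above the highest vehicle value of 8.10. NR4A1 at 4 h was lower in the LR12 arm (-1.09 ± 0.38, adjusted p = 0.042). These were the 2 of 12 member comparisons called, where 5.1% of genes were higher and 12.7% lower at 2 h, 4.94% higher and 9.01% lower at 4 h, 1.55% higher and 3.1% lower at 8 h, and 0.0125% higher and 0.0187% lower at 0 h. The NR4A1 difference was -1.45 without Y31303. Its call was lost in 6 of 14 alternatives and in 9 of the 14 fits without 1 animal, in which the difference ran from -0.89 (without Y31302) to -1.09 (without Y31308).

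The change of NR4A3 from 0 to 2 h exceeded that of the vehicle arm by 3.83 ± 0.77 in the LR12 arm (SE, limma adjusted p = 0.0017), the 1 of 9 such comparisons called. Of all genes 2.81% were called with a larger and 7.72% with a smaller change at 2 h, 2.27% larger and 4.76% smaller at 4 h, and 0.662% larger and 1.08% smaller at 8 h. Without Y31303 the difference was 4.80. Without Y31301, Y31302 and Y31309 together it was 2.80 and not called (adjusted p = 0.069). For NR4A1, whose 4 h level was called above, the change from 0 h differed by -0.86, -1.06 and -0.49 at 2, 4 and 8 h. None of these was called (limma adjusted p = 0.248, 0.152 and 0.600).

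For the peptide control arm against vehicle, the NR4A3 level at 2 h differed by 2.50 ± 0.67 (SE, limma adjusted p = 0.138) and its change from 0 h by 3.76 ± 0.84 (adjusted p = 0.206). Neither was called, nor was any other of the 12 levels and 9 changes. Of all genes, 0% were called at 0 and 2 h, 0.0187% higher and 0.00624% lower at 4 h, 0.0125% in each direction at 8 h, and 0% for the change to any hour, where 950 genes had an unadjusted p under 0.05 at 2 h. Leaving out Y31303 gave 3.27 for the level and 4.73 for the change (adjusted p = 0.0013 and 0.0014), leaving out Y31305 gave 3.68 and 4.84 (0.00016 and 0.00019), and leaving out both gave 4.45 and 5.80 (1.4e-08 and 1.8e-08). Whether the NR4A3 response of the peptide control arm passed against vehicle thus depended on these animals. Both were singled out after their 2 h values were seen, and leaving them out takes away the values that go against the difference. The adjusted p of these fits are therefore no independent support for it.

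**Figure D3:**
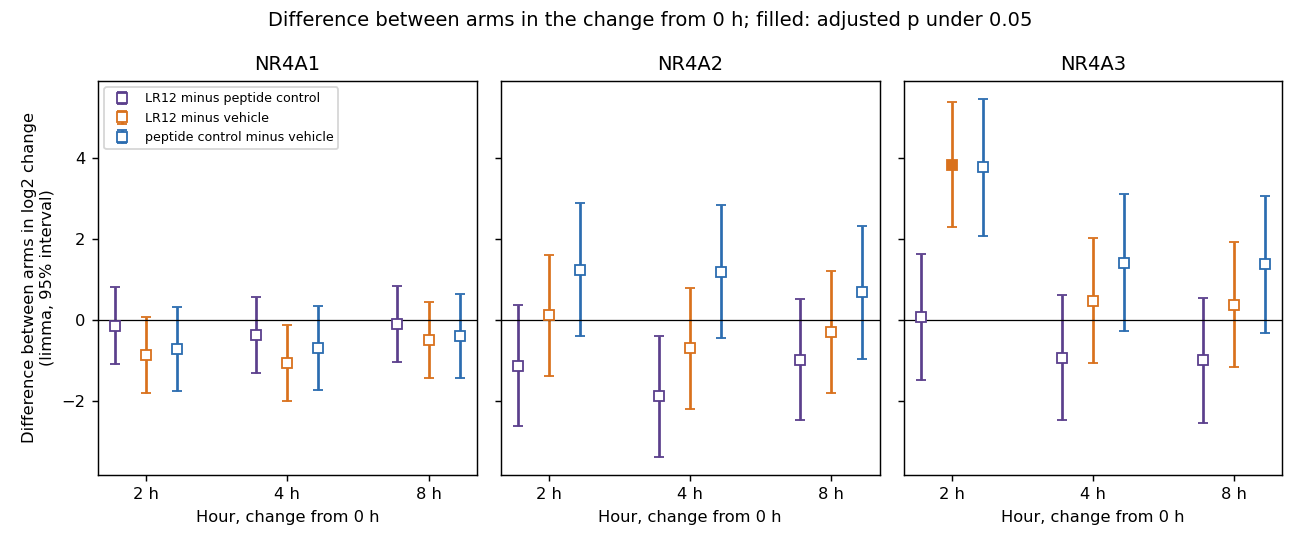
Difference between arms in the log2 change from 0 h (vertical axis) at 2, 4 and 8 h (horizontal axis) for each NR4A gene. Squares are limma estimates, bars are 95% intervals, and the 1 filled square, NR4A3 in LR12 minus vehicle at 2 h (3.83), has an adjusted p under 0.05. The LR12 minus peptide control difference for NR4A3 at 2 h is centred near 0, at 0.07.

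Blood cell markers moved with these changes. Among all genes at 2 h, 12.1% were called higher and 25.8% lower with LR12, and 4.37% and 3.26% with peptide control. At 2 h in the LR12 arm, 5 of 9 measured monocyte markers were called lower and 3 higher, 11 of 12 T cell markers lower, 8 of 9 B cell markers lower, 6 of 10 natural killer cell markers lower and 8 of 12 neutrophil markers higher. Platelet, erythroid, and eosinophil and basophil markers had 1 of 7, 1 of 7 and 0 of 6 called higher and 0, 0 and 1 called lower. In the peptide control comparison at 2 h, 3 monocyte markers were lower and 1 higher, and 0 of 12 T cell markers were called by limma, with 0 at an unadjusted p under 0.05. A marker counted as measured only if it lay above the array median on at least 4 arrays. None could therefore lie under the 20th percentile on all arrays. In whole blood, fewer cells of a type and less RNA per cell cannot be told apart.

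The monocyte marker set, by its mean log2 level, moved opposite to NR4A3 across animals at 2 h. Its mean log2 level changed by -1.73 to -0.61 in the 6 LR12 animals, by -0.96, -1.27 and -1.47 in Y31306, Y31307 and Y31308, and by -1.70 in Y31303. It changed by 0.24 in Y31305 and by -0.03, -0.03 and 0.54 in Y31301, Y31302 and Y31304. The 10 animals with the lowest monocyte marker changes were also the 10 with the highest NR4A3 levels at 2 h. The members of the set did not move alike: in the LR12 arm CSF1R, the receptor of macrophage colony-stimulating factor, fell by 4.16 and CX3CR1, the fractalkine receptor, by 3.05, while CD14, the endotoxin co-receptor, rose by 1.65. The summed monocyte marker intensity in that arm did not fall as the mean log2 level did. It ran from 16234 through a median of 18494 to 25448 at 0 h and from 15931 through 26168 to 28736 at 2 h.

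T cell markers followed another course. Their summed intensity in the LR12 arm was 8760 to 15128 at 0 h, 2284 to 11055 at 2 h, 1259 to 3839 at 4 h and 1646 to 4738 at 8 h, so that they were lowest at 4 h, as NR4A1 and NR4A2 were. For peptide control it was 6574 to 11502 at 0 h, 8126 to 9340 at 2 h and 2558 to 5907 at 4 h. The part of these cell markers in the NR4A changes was not tested.

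**Figure D4:**
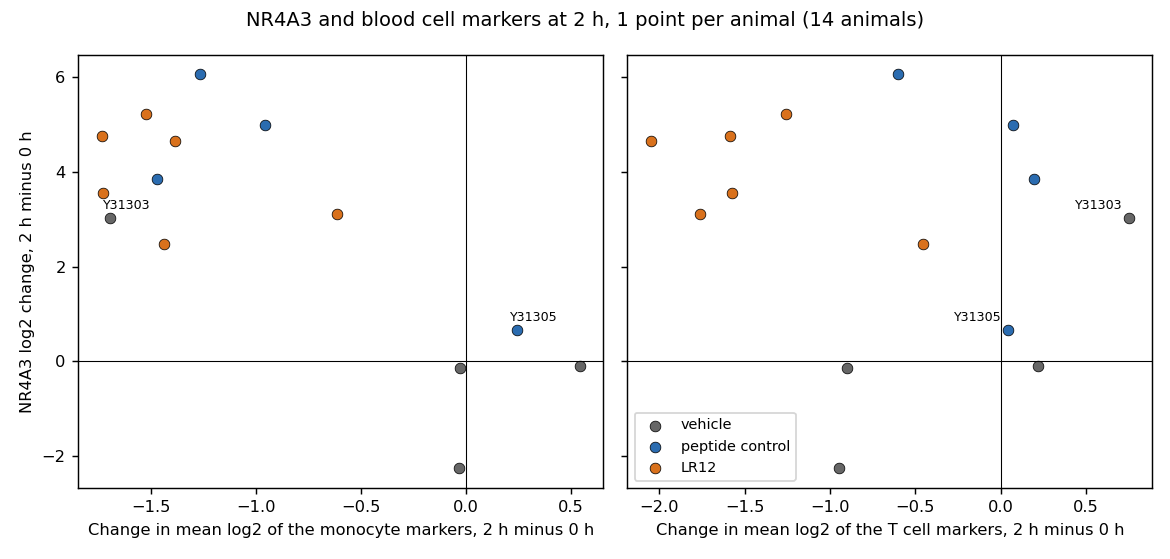
NR4A3 log2 change from 0 to 2 h (vertical axis) against the change in mean log2 level of 9 monocyte markers (left, horizontal axis) and 12 T cell markers (right, horizontal axis), 1 point per animal for 14 animals in 3 arms. On the monocyte axis, vehicle animal Y31303 lies with the LR12 animals and peptide control animal Y31305 with the other vehicle animals. On the T cell axis Y31303 lies at 0.75, apart from the LR12 animals at -2.05 to -0.46.

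The probe sets of a member did not all show the same. The second and the third probe sets of NR4A3 correlated with the one used at 0.46 and 0.42 over the 56 arrays. Their changes to 2 h were 0.84 and 1.01 with LR12, 0.70 and 1.57 with peptide control, and -0.58 and 0.003 with vehicle. They were in the same direction in both peptide arms, smaller, and not called (limma adjusted p from 0.067 to 0.418). The third NR4A3 set had a mean log2 level of -0.54 and lay above the array median on 0 of 56 arrays. It would not pass the filter of at least 4 arrays.

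For NR4A2, the second probe set correlated at 0.83 with the one used and changed by -1.70, -1.88 and -2.09 at 2, 4 and 8 h in the LR12 arm, close to the values above. The third correlated at 0.44 and changed by -0.90, -1.91 and -2.26. For NR4A1, the second probe set correlated at 0.58 and changed by -0.33, -1.78 and -1.29 in the LR12 arm. The third correlated at 0.02 and changed by 0.25, -1.51 and -1.26. In the LR12 arm the 2 h fall of NR4A1 was called with the probe set used only, and the 4 h fall with all 3. The third NR4A1 set had a mean log2 level of 1.63 and lay above the array median on 0 of 56 arrays. It would not pass the filter of at least 4 arrays, so its values carry little weight. With peptide control the second set changed by -1.04 and -1.17 at 2 and 4 h and the third by 0.55 and 0.74, none of them called. The suffix x in the names of the probe sets used for NR4A1 and NR4A2 marks probes that may also match other sequences.

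Over the 56 arrays, after each animal's own mean was subtracted, the level of NR4A1 correlated with that of NR4A2 at 0.48 (Spearman 0.48), and NR4A3 with NR4A1 at -0.24 and with NR4A2 at 0.13. These arrays share animals and hours, and the values describe them only. The 5 genes most like NR4A3 by this measure were PLK3, a polo-like kinase of the stress response (Pearson 0.94, Spearman 0.79), TTL, the tubulin tyrosine ligase (0.93, 0.81), IL18, the gene of the inflammasome-processed cytokine interleukin 18 (0.92, 0.74), OXSR1, a stress-responsive kinase (0.91, 0.75) and TJAP1 (0.91, 0.74). At 2 h, PLK3 changed by 3.11 in the LR12 arm, 2.57 in the peptide control arm and 0.63 in the vehicle arm, and IL18 by 4.64, 3.72 and 0.03.

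The genes most like NR4A1 were ADA, the adenosine deaminase (Pearson 0.86), ZNF362 (0.85), BANP (0.84), FAAH, which breaks down endocannabinoids (0.84), and INO80C (0.84), which in the LR12 arm changed by -0.69 to -2.97 at 2 h. Those most like NR4A2 were SKIC3, a subunit of an RNA decay complex (0.80), CDKAL1 (0.78), ETS1, a transcription factor of lymphocytes (0.75), the exosome subunit EXOSC7 (0.75) and BHLHE40 (0.75). At 4 h in the LR12 arm, SKIC3 changed by -1.40, CDKAL1 by -1.97 and ETS1 by -1.90. None of the 15 genes was shared between members.

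Genes around the NR4A receptors were followed in 7 lists. The counts of each list are to be read against the shares of all genes called at 2 h. These were 12.1% higher and 25.8% lower with LR12, 4.37% and 3.26% with peptide control, and 0.0687% and 0.00624% with vehicle. In the vehicle arm at 2 h, 0 genes of each list were called by limma, with 0 to 4 per list at an unadjusted p under 0.05. In the LR12 arm at 2 h, 10 of 22 measured immediate early genes were called higher and 4 lower, with a median change of 0.36 against -0.18 for all genes. IER3, an early survival gene, rose by 5.53 and FOSL1, an AP-1 subunit, by 3.75, while FOS, the founding AP-1 gene, fell by 4.16 and KLF4, a Kruppel-like factor, by 3.97. Of the 22, peptide control had 6 called higher and 2 lower, with IER3 at 4.15, FOSL1 at 3.99, FOS at -2.34 and KLF4 at -1.99.

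Upstream of NR4A transcription, the cyclic AMP and CREB list had 7 of 18 genes called higher and 6 lower in the LR12 arm at 2 h (median 0.24). PTGER2, a prostaglandin E2 receptor that raises cyclic AMP, rose by 3.11 and PTGS2, the inducible cyclooxygenase, by 2.42, while ADORA2B, an adenosine receptor, fell by 4.52 and PRKACB, a catalytic subunit of protein kinase A, by 2.29. CREB1, which binds the cyclic AMP element, rose by 1.43. Peptide control had 3 of 18 called higher and 1 lower, with PTGER2 at 2.64 and ADORA2B at -2.42.

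The calcium, NFAT and MEF2 list, the route from the antigen receptor to NR4A genes, had 3 of 16 genes called higher and 7 lower in the LR12 arm at 2 h (median -0.48). NFATC3 fell by 2.19, and the calcium-dependent kinase genes CAMK2D and CAMK4 by 1.80 and 1.12, while CAMK2G rose by 1.60. Peptide control had 1 of 16 called in each direction, CAMK2G (1.06) and the calcineurin subunit gene PPP3R1 (-1.82).

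Among partners and cofactors of NR4A proteins, 2 of 14 were called higher and 5 lower in the LR12 arm at 2 h (median -0.14). The shares of all genes there were 12.1% and 25.8%. RELA, the NF-kB subunit that NR4A receptors restrain, rose by 1.49. NRIP1, a corepressor, fell by 1.78, KDM1A, a histone demethylase, by 1.35 and TRIM28, a corepressor, by 1.19. RXRA and RXRB, genes of the retinoid X receptors with which NR4A1 and NR4A2 form dimers, changed by 0.42 and 0.24 and were not called. With peptide control RELA rose by 0.88 and NRIP1 fell by 1.58, the only calls of that list.

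Of the other nuclear receptors, 3 of 28 measured were called higher and 10 lower in the LR12 arm at 2 h. The shares of all genes there were 12.1% and 25.8%. The median of the list was -0.17, close to the -0.18 of all genes. The lowest were NR1H3, a sterol-sensing receptor (-3.32), RORA (-2.91), NR2F6 (-2.34) and PPARA, a fatty acid sensor (-2.11). The highest, ESRRB, rose by 1.08, below the 3.96 of NR4A3. With peptide control 1 of 28 was called, NR1H3 (-1.60).

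Patrolling monocyte genes, the cells in which NR4A1 is best known, had 1 of 10 called higher and 5 lower in the LR12 arm at 2 h (median -0.70), with TCF7L2 at -2.83 and POU2F2 at -0.91 beside CSF1R and CX3CR1. With peptide control 3 were called, all lower: CSF1R, CX3CR1 and TCF7L2. Of the T cell restraint genes linked to NR4A, 1 of 11 was called higher and 4 lower in the LR12 arm (median -0.19). The shares of all genes there were 12.1% and 25.8%. BATF, an AP-1 family factor, rose by 5.05, and TOX, TOX2 and IKZF2 fell by 1.64, 1.56 and 1.26. BATF rose by 3.83 in the peptide control arm, where no other gene of that list was called.

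**Figure D5:**
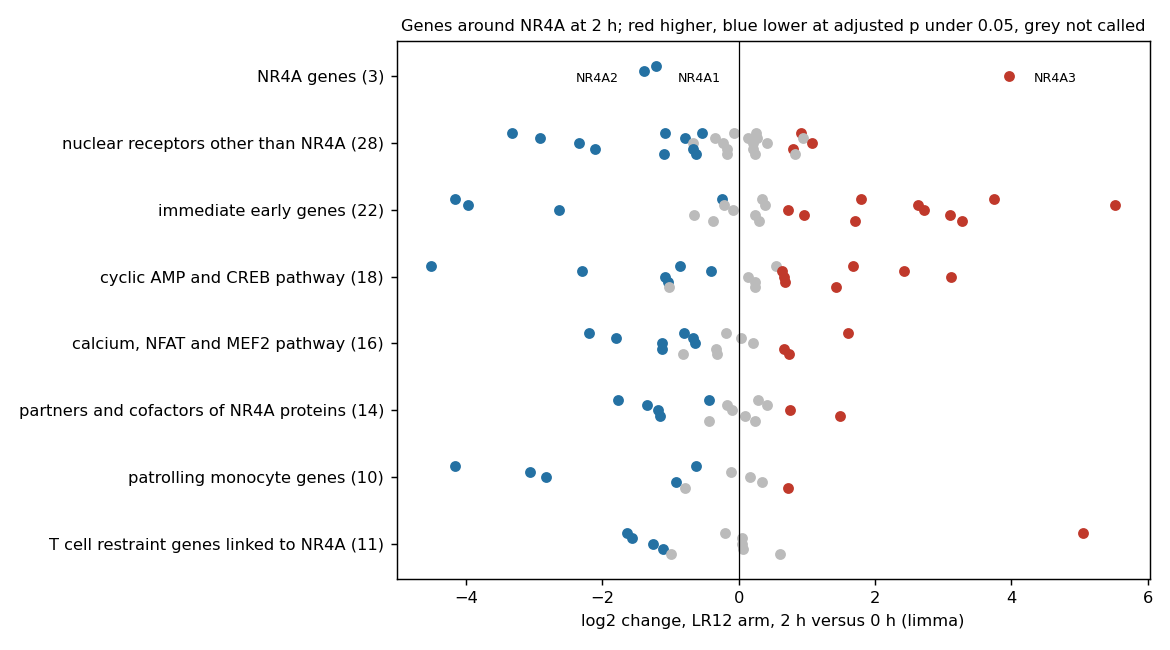
Log2 change from 0 to 2 h in the LR12 arm (horizontal axis, limma estimates) for the 3 NR4A genes and the measured genes of 7 lists (rows, number measured in brackets), 1 point per gene. Red points are higher and blue points lower at an adjusted p under 0.05, and grey points were not called. NR4A3 (3.96) lies among the highest immediate early genes, and NR4A1 and NR4A2 lie among genes that fell.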

How the data were processed

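Blood RNA of 14 macaques was collected in PAXgene tubes and amplified with a NuGEN kit from 50 ng, per the labels' protocols. The authors deposited 1 table of linear intensity values for 54675 probe sets on 56 arrays, which per the submitters' processing notes are MAS5 output (version not given in the sources used here). The 2% trimmed mean was 150.03 to 150.04 on every array, so the authors had scaled the arrays alike. The build behind the array is not given in the sources used here, and no coordinates are printed.

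The deposited intensities were taken to log2 and not normalized again. Probe sets above the array median on at least 4 arrays were kept, and each gene was read by the kept single-symbol probe set with the highest mean. For the 16020 genes, limma 3.58.1 (R 4.3.3) fitted 1 model of 12 groups, trend and robust moderation, and the animal as a block (statmod 1.5.0, consensus correlation 0.221). Pairing was checked: arrays of an animal correlated at 0.18 after removal of group means, those of different animals at -0.03, and all 14 animals exceeded 0.1. Benjamini-Hochberg adjustment was made within each of 36 comparisons, 108 for the members, with a gene called under 0.05. The method was also run on simulated data in which few genes changed, and only in 1 group. That setting is unlike the LR12 arm, where many genes were called, and no result here rests on it. Members are always named. From each list, the up to 4 called genes with the largest change at 2 h in the LR12 arm are named, besides genes that state a role, and genes like a member are the 5 with the highest correlation. ESRRB, PPP3R1 and CD14 fall outside this rule and were chosen after their values were seen. The members and the lists were chosen with earlier results of these data known. Alternatives varied the block, scaling, offset, filter, moderation, control set, probe set, arms and animals.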

Additional observations from a re-analysis of the deposited data

Results flagged for a closer look

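Of 36 groups of arm, hour and gene, 4 held an animal whose gap to its nearest neighbour was large for the group's range, where chance gives about 1 in 20. NR4A1 at 4 h in the peptide control arm was 7.15 in Y31305, with the nearest other animal at 5.28. NR4A1 at 4 h in the LR12 arm was 6.14 in Y31309, with the nearest at 5.08. NR4A2 at 4 h in the peptide control arm was 4.00 in Y31306, with the nearest at 5.21. NR4A2 at 8 h in the peptide control arm was 2.37 in Y31305, with the nearest at 4.95.

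The change of NR4A3 from 0 to 2 h differed between the LR12 and vehicle arms by 3.83 on the log2 scale, by limma's test of the difference.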

How the results depend on the processing

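The fit on low-reading arrays could not be made for peptide control against 0 h, where that arm had 1 such array. The NR4A3 rise at 2 h was called in both peptide arms under every alternative run but the other probe sets. For the second and the third set it was 0.84 and 1.01 in the LR12 arm and 0.70 and 1.57 in the peptide control arm. Its LR12 value ran from 3.71 to 4.26 with 1 animal left out, and the peptide control value from 3.17 to 4.97. The third probe sets of NR4A1 and NR4A3 lay above the array median on 0 of 56 arrays, where the filter asked for at least 4. The NR4A1 fall at 2 h in the LR12 arm was -0.33 with the second probe set and reversed to 0.25 with the third. The 4 h change of NR4A1 in the peptide control arm also reversed with the third (0.74). Its peptide control change at 2 h became called with the animal as a fixed effect (-1.07), an offset of 16 (-0.88), the filter of 14 arrays (-1.07), the control set as a covariate (-1.29) and without Y31303 and Y31305 together (-1.67), was 0.55 with the third probe set, and ran from -1.67 to -0.52 with 1 animal left out. NR4A2 at 2 h was -0.90 in the LR12 arm and 0.70 in the peptide control arm with the third probe set. In the vehicle arm it was -3.08 on low-reading arrays, which at 0 h came from Y31301 and Y31302 only. With 1 animal left out it ran from -1.62 to -1.18 (LR12) and from -0.81 to 0.22 (peptide control). NR4A3 at 2 h in the vehicle arm was -0.0035 with the covariate, -0.83 on low-reading arrays, -0.58 with the second probe set, -0.83 without Y31303 and Y31305 together, 1.46 without Y31301, Y31302 and Y31309 together, and -0.83 to 0.93 with 1 animal left out.

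Counts moved too. The 9 called changes from 0 h became 4 and 3 with the second and the third probe sets. They numbered at most 11 in the other alternatives, and 8 to 11 with 1 animal left out. The 2 called steps from 2 to 4 h became 1 with the third probe set, and stayed at 2 with 1 animal left out. From 4 to 8 h, 1 was called with the fixed effect, the covariate, only the arms compared, and without Y31303 and Y31305 together, and 0 to 1 with 1 animal left out. Between arms at the same hour, 1 was called with no replicate block, quantile scaling, the offset, the second probe set, and without Y31301, Y31302 and Y31309 together, 0 with the third probe set, 7 without Y31303 and Y31305 together, and 1 to 4 with 1 animal left out. For differences in the change, 0 were called with the second and the third probe sets and without Y31301, Y31302 and Y31309 together, 4 without Y31303 and Y31305 together, and 1 to 2 with 1 animal left out. Apart from the probe sets, the cause was not tested. Without the replicate block, NR4A1 in the LR12 arm at 8 h (adjusted p = 0.071), in the peptide control arm at 4 h (0.070) and in LR12 against vehicle at 4 h (0.058) were lost as calls. These NR4A1 results also lost their calls under others. At 8 h with LR12 the call was lost with centring (-0.55), quantile scaling (-0.57), the covariate (-0.68), low-reading arrays (-0.54), the second and the third probe set (-1.29, -1.26) and without Y31301, Y31302 and Y31309 together (-0.85). With peptide control at 4 h it was lost with centring (-0.99), the second probe set (-1.17) and only the arms compared (-1.26). For LR12 against vehicle at 4 h it was lost with quantile scaling (-0.91), the offset (-0.85), the second and the third probe set (-1.02, -0.53) and without Y31301, Y31302 and Y31309 together (-0.77). With the animal as a fixed effect the arms at the same hour could not be fitted. The leave-out pairs and triples were chosen after seeing the data.

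Human probes on macaque RNA, 4 to 6 animals an arm and 1 probe set per gene limit these values.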

Other observations

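At 4 h in the LR12 arm, the early genes named beside the NR4A receptors still lay apart, over a narrower range than at 2 h. IER3 was still raised (2.46, limma adjusted p = 0.0034) and FOSL1 was at -0.72 (adjusted p = 0.419), while FOS stayed low at -3.07 and KLF4 was at -0.91 (adjusted p = 0.062). PTGS2 (2.73) and PTGER2 (2.62) of the prostaglandin and cyclic AMP route stayed high after NR4A3 had come down. Of the other nuclear receptors, RORA (-3.96) and NR1H3 (-4.03) were lower than at 2 h. By 8 h RORA was at -3.15, whereas NR1H3 was at 0.11 (adjusted p = 0.859). The patrolling monocyte genes CSF1R and CX3CR1 were at -0.03 and -0.55 at 8 h, neither called.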
